A study of Saccharomyces cerevisiae with 10 samples.

Results

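Peaks of Myc-tagged Swc4 in the interior of open reading frames were those whose summit, the base of highest signal, lay in exactly 1 protein-coding gene of at least 1500 bp and more than 500 bp from both its start and its end. Of 9305 nuclear peaks in 4 lists, 1414 met this rule. They were 9 of 625 peaks in wild type, 878 of 4522 in yaf9d, 422 of 2900 in eaf1d and 105 of 1258 in swr1d. The rule used position alone and no measured height.

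The peaks came from chromatin immunoprecipitation followed by sequencing (ChIP-seq), in which a c-Myc antibody pulled down chromatin of budding yeast grown at 30 °C in 50 ml of YPD, a rich glucose medium, to an OD600 of about 0.6. The 4 genotypes with lists were wild type and strains deleted for YAF9 (yaf9d), EAF1 (eaf1d) or SWR1 (swr1d), and all 4 carried the same SWC4-13MYC allele, a fusion of Swc4 to 13 copies of the Myc epitope. A wild-type strain with no tag, also with 2 samples, made up the 5 groups and 10 samples of the study and was not analysed here, so signal that does not depend on the tag was not measured. Each list pools the 2 repeats of its genotype. There is therefore no spread between repeats, no difference between genotypes was tested, and the intervals below are exact 95% intervals of counting error only (Clopper-Pearson for shares, Poisson for rates). Sequencing depth was not given in the sources used here. Differences in list length between genotypes and differences in depth cannot be told apart.

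Swc4 is a subunit shared by SWR1, which exchanges histone H2A for the variant H2A.Z, and NuA4, which acetylates histones H4 and H2A. Yaf9 is another shared subunit that reads acetylated histones, Eaf1 is the scaffold that holds NuA4 together, and Swr1 is the ATPase of SWR1. These complexes are best known at promoters and at the nucleosome next to the transcription start, whereas the interior of a long gene is packed with regularly spaced nucleosomes that RNA polymerase II passes through.

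The interior of long genes held fewer peaks than its length in every list. By the rule it made up 28.7% of the nuclear length, 3464896 of 12068019 bp, in 2248 genes. In wild type 1.44% of peaks (0.661 to 2.72) lay there, 9 against 179 for an even spread over length. The share was 19.4% in yaf9d (18.3 to 20.6), with 878 peaks against 1298. It was 14.6% in eaf1d (13.3 to 15.9), with 422 against 833, and 8.35% in swr1d (6.88 to 10), with 105 against 361. None of these intervals reached 28.7%. The ratio to the length share was thus 0.0502 in wild type, 0.676 in yaf9d, 0.507 in eaf1d and 0.291 in swr1d. When each list was shortened to its 625 most significant peaks the ratios were 0.0502, 0.100, 0.167 and 0.0836 in the same order, and among peaks of fold at least 2 they were 0.0183, 0.490, 0.253 and 0.0426. The order of yaf9d and eaf1d thus turned at equal list length, where their intervals (0.0598 to 0.157 and 0.114 to 0.236) overlapped.

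The same lists had more peaks than the length share in short genes, and in yaf9d and eaf1d also in the first and last 500 bp of long genes. In the first 500 bp the intervals of wild type (8.40 to 13.4% of peaks) and swr1d (6.80 to 9.93%) contained its length share of 9.15%. The last 500 bp, 9.30% of the length, held 3.52% of peaks in wild type, 12.2% in yaf9d, 11.3% in eaf1d and 8.11% in swr1d. Between protein-coding genes, 27.1% of the length, the shares were 37.4%, 15.5%, 17.1% and 41.3% in that order. They were thus above the length share in wild type and swr1d and below it in yaf9d and eaf1d. Per 100 kb of interior there were 0.260 summits in wild type (0.119 to 0.493), 25.3 in yaf9d (23.7 to 27.1), 12.2 in eaf1d (11.0 to 13.4) and 3.03 in swr1d (2.48 to 3.67). The first 500 bp of the same genes held 6.07, 56.1, 42.8 and 9.42 summits per 100 kb in that order, and the last 500 bp held 1.96, 49.3, 29.3 and 9.09. In each list the interval of the interior rate lay below the intervals of both ends. Between protein-coding genes the order changed: wild type with 7.14 and swr1d with 15.9 summits per 100 kb were far above their interior rate, whereas yaf9d with 21.3 and eaf1d with 15.2 lay nearer to it, and in yaf9d below it.

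**Figure D1:**
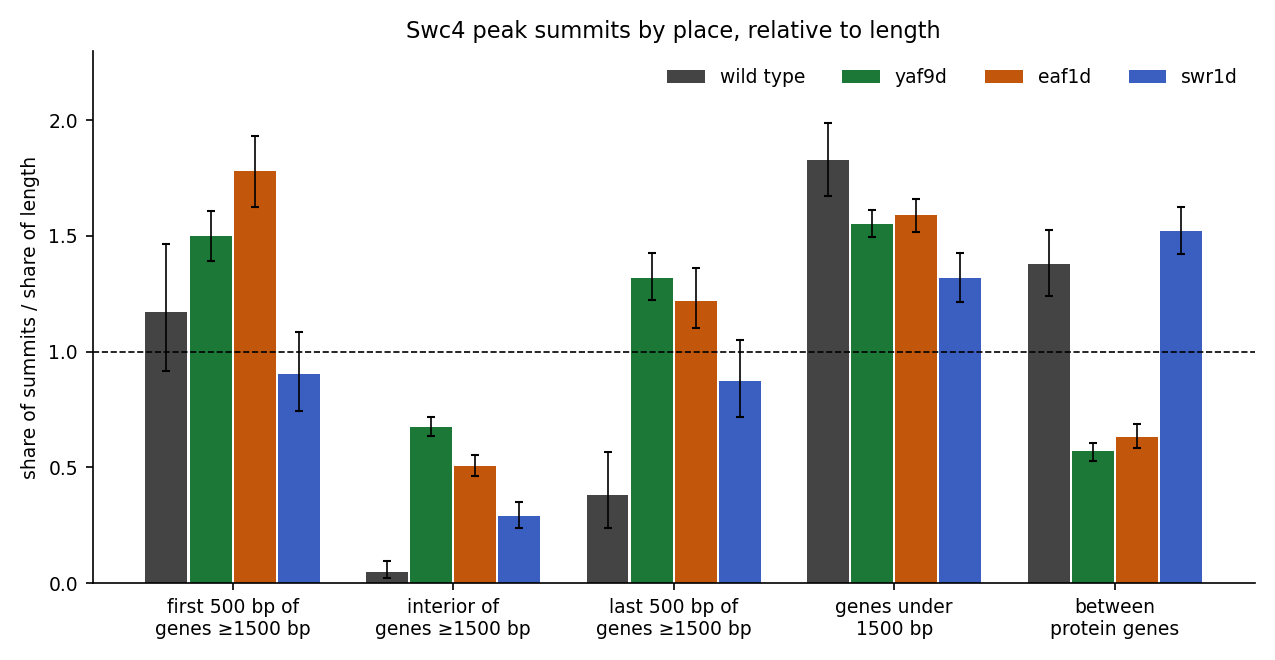
Summits in each place relative to its share of the nuclear length, for the 4 lists. The y axis is the ratio of the share of peaks to the share of length, bars start at 0, error bars are exact 95% intervals of counting error, and the dashed line marks equal shares. The bars of the interior lie below the line in all 4 lists, from 0.0502 in wild type to 0.676 in yaf9d.

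Among summits inside long genes alone, the interior is 60.9% of the length that counts. It held 9 of 98 such summits in wild type, or 9.18% (4.29 to 16.7). In yaf9d it held 878 of 2050, or 42.8% (40.7 to 45.0), in eaf1d 422 of 1223, or 34.5% (31.8 to 37.2), and in swr1d 105 of 311, or 33.8% (28.5 to 39.3). All 4 shares were under the length share. The lists differ in length, and whether these shares move with it was not tested. The cut to equal list length was made for another measure, the share of all nuclear peaks. It kept the most significant peaks of each mutant list and left wild type whole. In the mutants, interior peaks were a smaller share of the most significant peaks than of the least significant. Length and significance thus changed together in this cut. At equal list length the intervals of the ratio to the length share were 0.0230 to 0.0946 in wild type, 0.0598 to 0.157 in yaf9d and 0.0470 to 0.137 in swr1d, which overlap. That of eaf1d, 0.114 to 0.236, overlapped those of yaf9d and swr1d and lay above that of wild type. Peaks covered 0.227% of interior bases in wild type, 13.0% in yaf9d, 7.99% in eaf1d and 1.42% in swr1d, against 3.34%, 18.4%, 13.9% and 5.12% of the whole nuclear length.

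Over all long genes, summits were sparser farther from the nearer end of the gene. In yaf9d there were 62.0 summits per 100 kb within 250 bp of an end and 30.7 at 500 to 750 bp. There were 26.5 at 750 to 1000 bp, 24.0 at 1000 to 1500 bp and 16.3 beyond 1500 bp. In eaf1d these values were 47.7, 16.3, 13.0, 11.2 and 5.49, and in swr1d 10.2, 4.4, 2.44, 3.09 and 1.53. Wild type had 6.76, 0.629, 0.116 and 0.119 per 100 kb in the same classes, with none beyond 1500 bp. In swr1d and wild type the rate was thus not lower at 1000 to 1500 bp than at 750 to 1000 bp. The interior rate also differed with gene length, and the far distances exist only in longer genes. In yaf9d it was 33.2, 30.1, 21.6 and 14.0 per 100 kb in genes of 1500 to 2000, 2000 to 3000, 3000 to 5000 and at least 5000 bp. In eaf1d it was 17.1, 15.2, 9.64 and 5.31, in swr1d 3.75, 4.18, 2.34 and 1.24, and in wild type 0.750, 0.0890, 0.270 and 0, so the lower rate at each step held in yaf9d and eaf1d. Within genes of at least 5000 bp alone, yaf9d had 45.2 summits per 100 kb within 250 bp of an end, then 20.6 at 500 to 750 bp, 8.22 at 750 to 1000 bp, 15.3 at 1000 to 1500 bp and 13.8 beyond. There eaf1d had 32.9, 12.4, 8.22, 4.79 and 4.13, and swr1d 14.4, 6.19, 0, 0 and 1.38. In those genes the yaf9d and swr1d rates did not become lower at each step of the interior. Interior summits were split between both sides of the gene: 50.8% lay nearer the start than the end of the gene in yaf9d (47.4 to 54.2), 50.5% in eaf1d (45.6 to 55.3) and 51.4% in swr1d (41.5 to 61.3).

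**Figure D2:**
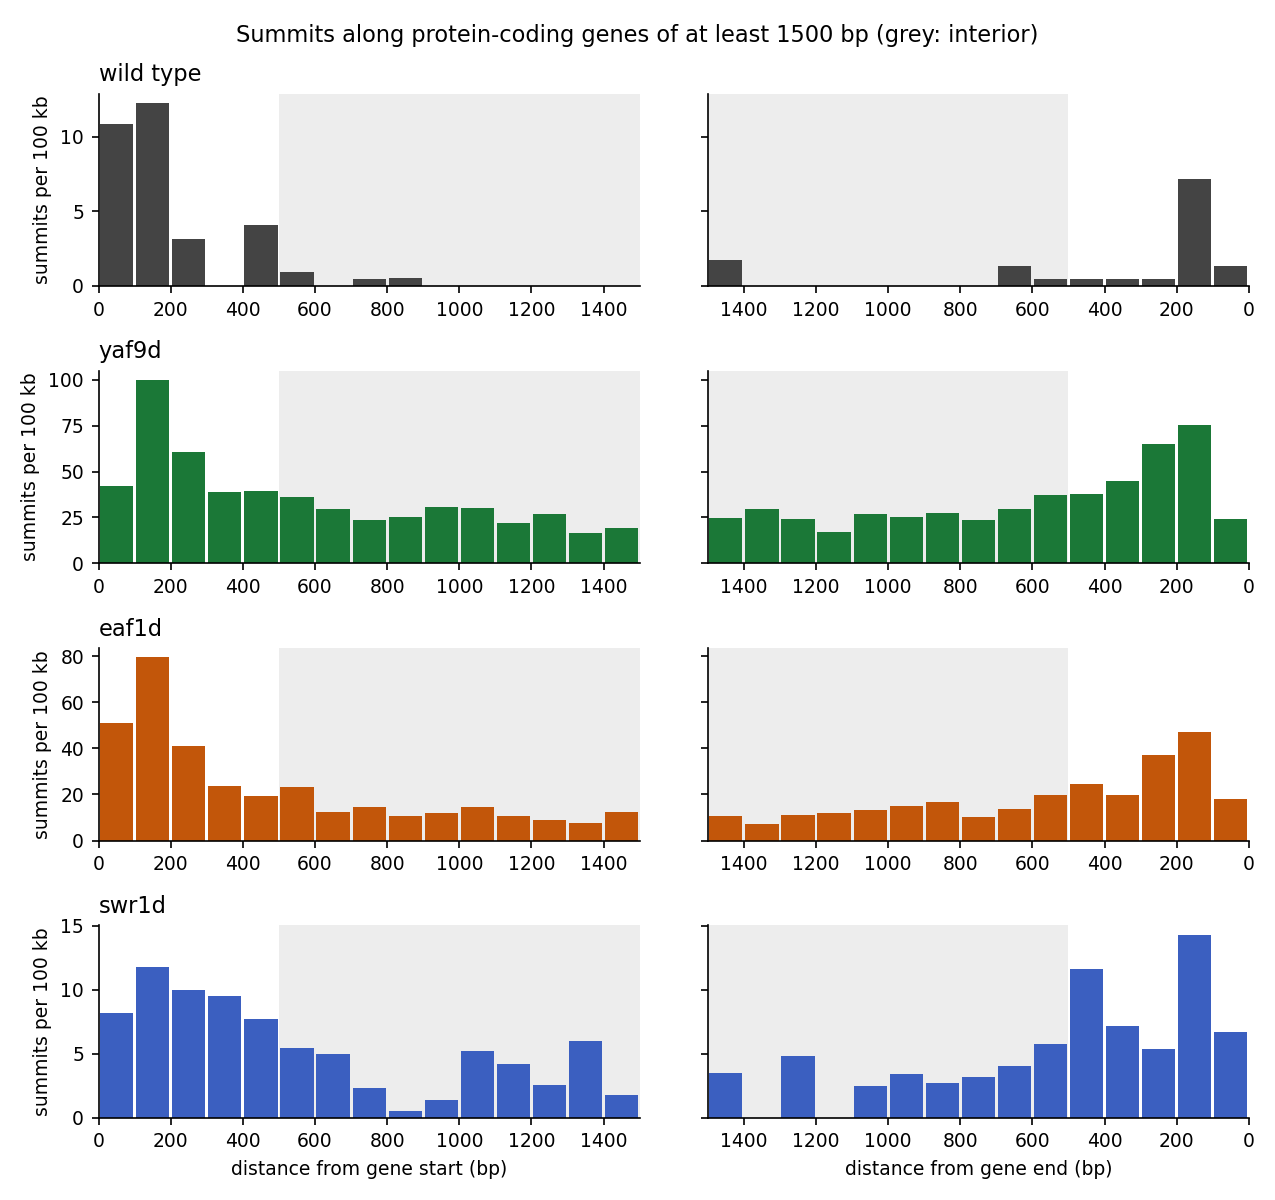
Summits per 100 kb in bins of 100 bp along long genes, by distance from the start (left) and from the end (right), 1 row per list with its own y axis. A base is counted on the side of the nearer end, and the bins beyond 500 bp are the interior. In yaf9d the first bin from the start has 42.3 and in eaf1d 50.9 summits per 100 kb, while the bin next to the gene end has 24.1 and 17.9, below some bins of the interior.

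Interior peaks were weaker than the other peaks of their list, by the authors' fold enrichment (the pileup at the summit over the local background). The median fold was 1.28 against 1.67 for other nuclear peaks in wild type, 1.83 against 1.90 in yaf9d, 1.66 against 1.89 in eaf1d and 1.47 against 1.73 in swr1d. A fold of at least 2 was reached by 1 interior peak in wild type, or 11.1%, where 30.4% of all nuclear peaks reached it. The counts were 230 in yaf9d, 26.2% against 36.2% of all peaks, then 78 in eaf1d, 18.5% against 37.0%, and 6 in swr1d, 5.71% against 39.0%. The median −log10 q, the authors' significance, was 3.10 against 13.6 in wild type, 10.3 against 12.7 in yaf9d, 8.65 against 14.7 in eaf1d and 4.58 against 11.7 in swr1d. Interior peaks were also narrower, with median widths of 331 bp against 374 bp in yaf9d and 384 against 416 bp in swr1d. The whole peak, not only its summit, lay in the interior for 3, 577, 239 and 70 peaks in the order wild type, yaf9d, eaf1d and swr1d.

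The share of interior peaks was larger toward the weak end of the lists. Each list was cut by −log10 q into 4 bins of equal size. In the most significant bin the share was 0.641% in wild type, 7.35% in yaf9d, 5.24% in eaf1d and 0.955% in swr1d. In the least significant bin it was 4.46%, 23.7%, 26.6% and 16.2%. In eaf1d the interval of that last bin, 23.4 to 30.0%, contained the length share of 28.7%. In yaf9d the third bin was highest at 25.6% (23.1 to 28.2).

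**Figure D3:**
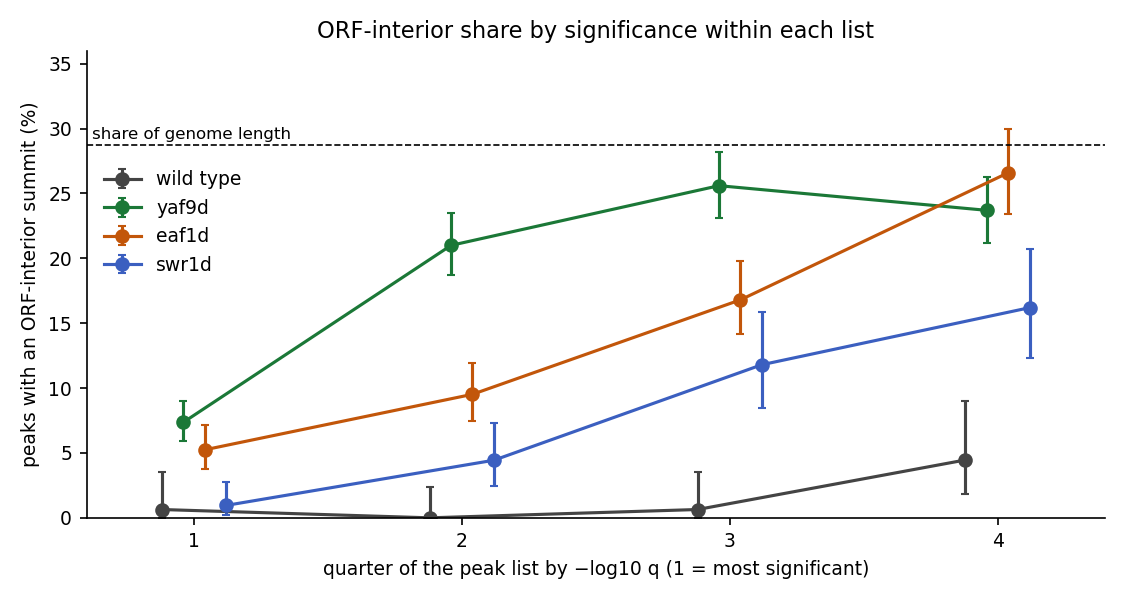
Share of peaks with an interior summit in 4 equal bins of each list, from the most to the least significant by the authors' −log10 q. Error bars are exact 95% intervals of counting error and the dashed line is the length share of 28.7%. The share is lowest in the most significant bin of yaf9d, eaf1d and swr1d.

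The 9 wild-type peaks were each in a different gene, 0.400% of the 2248 long genes. YPR204W, which the gene table gives no symbol, held the highest, at chromosome XVI 946116–946556, with fold 3.19 and −log10 q 88.9, ranked 59 in its list. The other 8 had folds of 1.17 to 1.43 and ranked 361 or lower. PUT4, the proline permease, had fold 1.43. QDR2, a drug transporter, had 1.36, and FUI1, the uridine permease, had 1.30. YEF3, translation elongation factor 3, had fold 1.28 and the next highest −log10 q at 10.1. ADE57, the table's name for the purine enzyme gene ADE5,7, had 1.26, RPA135, a large subunit of RNA polymerase I, 1.23, ALD5, a mitochondrial aldehyde dehydrogenase, 1.19, and ILV3, of branched-chain amino acid synthesis, 1.17. The 8 genes with a symbol thus coded for transporters, metabolic enzymes and parts of the transcription and translation machinery.

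The margin of the rule decided some of these. QDR2 at 516 bp and YEF3 at 552 bp from the gene start were the nearest inside it, and UTP15 at 493 bp (fold 1.24) and CDC19 at 485 bp (fold 1.11) were the nearest outside. From the gene end the nearest inside were ILV3 at 523 bp and RPA135 at 639 bp, and the nearest outside TEF4 at 479 bp (fold 1.31) and BAR1 at 367 bp (fold 1.43).

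Every wild-type interior peak shared at least 1 bp with a yaf9d peak, 9 of 9, where 96.8% of all wild-type peaks did. For eaf1d it was 4 of 9, against 74.7%, and for swr1d also 4 of 9, against 65.0%. Not all of these counterparts had their own summit in the interior. At PUT4 the yaf9d, eaf1d and swr1d peaks were 3105, 3123 and 3015 bp wide with summits upstream of the gene. At RPA135 the yaf9d summit lay on the same base as the wild-type one, 2972 bp from the gene start, with fold 2.20. YEF3 had its summit at 552 bp in wild type, 550 bp in yaf9d and 548 bp in eaf1d, with folds of 1.28, 1.45 and 1.21, and swr1d had no peak overlapping it. At FUI1 the yaf9d peak was 1249 bp wide with fold 2.10, and eaf1d and swr1d had none. QDR2 had a wide eaf1d peak of 1816 bp whose summit at 543 bp was interior, and in yaf9d and swr1d the summits at 449 and 404 bp fell outside the margin.

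YPR204W was the single gene with an interior summit in all 4 lists. Its fold was 3.19 in wild type, 2.98 in yaf9d, 2.95 in eaf1d and 2.58 in swr1d, and the summit was at base 946280 in the first 3 and 946279 in swr1d. The gene lies within 20 kb of a chromosome end, where sequence is repeated between chromosomes, so reads there may come from another copy. Within 20 kb of an end lay 1 interior peak in wild type, 22 in yaf9d, 12 in eaf1d and 3 in swr1d.

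The yaf9d list held the most interior peaks. They lay in 708 of the long genes, 31.5%, with 134 genes holding several. YLR227W-B, an unnamed gene that shares its first base with a shorter gene as the gag-pol genes of Ty retrotransposons do, had the highest fold at 3.94, and another of that arrangement, YPR158C-D, had 3.03. Reads from such repeated elements can belong to any copy. Among genes with a symbol, SWI1, of the SWI/SNF remodeller, led with 3.10 and a further peak of 2.42, followed by PUF3, an RNA-binding protein of mitochondrial messages, with 2.99. SIT1, a siderophore transporter, had 2.95, SWI5, a cell cycle transcription factor, 2.88, and KAR2, the Hsp70 of the endoplasmic reticulum, 2.83. Wild type had no peak overlapping SWI1, PUF3, SIT1, SWI5 or KAR2.

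Some genes carried rows of peaks in yaf9d. GCN1, the activator of the Gcn2 kinase, and FAS1, the beta subunit of fatty acid synthase, each had 5. The GCN1 summits lay 2093, 4044, 4904, 5614 and 6965 bp from its start with folds of 1.67 to 2.66, and no other list had a peak overlapping this gene. In FAS1 they lay at 1877, 2708, 4037, 4741 and 5533 bp with folds of 1.71 to 2.22. The eaf1d list had FAS1 summits at 4735 and 5553 bp, within 20 bp of 2 of those, and wild type had a FAS1 peak only near the start, at 155 bp with fold 1.5. IRA2, a negative regulator of Ras, had 4. Across yaf9d, neighbouring interior summits of the same gene were a median of 832 bp apart over 170 gaps, the closest 379 bp. Every chromosome held interior peaks in the 3 mutants, from 19.7 per 100 kb of interior on chromosome XIII to 33.8 on chromosome V in yaf9d, and from 9.66 on chromosome XI to 24.4 on chromosome I in eaf1d.

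In eaf1d, 384 long genes held interior peaks, 17.1%, and 36 held several. RIM4, an RNA-binding regulator of meiosis, had the highest fold at 4.87, at chromosome VIII 57840–58764, beside a peak of 4.61 near its start. In yaf9d these RIM4 peaks had folds of 2.05 and 1.57, and wild type and swr1d had no RIM4 peak. Beside YPR204W and SWI1, the next by fold were 5 genes of differing roles. TSL1, of trehalose synthesis, had 4.29, GLK1, glucokinase, 3.43, and GPH1, glycogen phosphorylase, 2.85. GIS1, a transcription factor of nutrient limitation, had 3.05 and TPO4, a polyamine transporter, 3.35. Wild type had no peak overlapping any of these 5 genes. Some of these peaks were broad, 3030 bp at TSL1, 2509 bp at GLK1 and 1926 bp at TPO4, and ran past the gene, so that the interior summit was 1 point of a domain. In all, 40 eaf1d interior peaks were wider than 1000 bp, as were 51 in yaf9d, 3 in swr1d and none in wild type.

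In swr1d, 100 long genes held interior peaks, 4.45%, and 5 held 2. The 4 highest folds lay in unnamed genes, YLR227W-B with 3.36, YPR204W with 2.58, YPR158C-D with 2.40 and YDR365W-B with 2.18. All but YPR204W are placed like Ty gag-pol genes. In YLR227W-B the summit lay 2322 bp from the gene start in yaf9d and eaf1d and 2319 bp in swr1d, and in YPR158C-D 2324, 2322 and 2322 bp, so the same stretch of the element held the summit in both. YIL082W-A, also without a symbol, had 3 interior peaks in yaf9d, 3 in eaf1d and 2 in swr1d, with folds of 1.39 to 2.27. Its yaf9d summits at 1441 and 2026 bp lay near those at 1389 and 2057 bp in YGR109W-B, a gene placed like Ty gag-pol genes. The summit at 3060 bp had no such neighbour. Whether YIL082W-A is also a repeated element was not tested, and the Ty counts below leave it out. YEL077C, at the left end of chromosome V, had 4 interior peaks in yaf9d, 1 in eaf1d and 2 in swr1d. NUP100, of the nuclear pore, had 2 interior summits in each of the 3 mutants, with folds of 2.06 and 1.56 in yaf9d, 1.53 and 1.4 in eaf1d and 1.55 and 1.37 in swr1d. FRE5, a ferric reductase by homology, had 2.17, SDD4 2.06, IRS4 1.90 and GDA1, a Golgi guanosine diphosphatase, 1.89. SDD4 and GDA1 had interior summits in all 3 mutants and no wild-type peak, with folds of 2.51, 2.34 and 2.06 for SDD4 and of 2.27, 1.63 and 1.89 for GDA1 in the order yaf9d, eaf1d and swr1d.

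**Figure D4:**
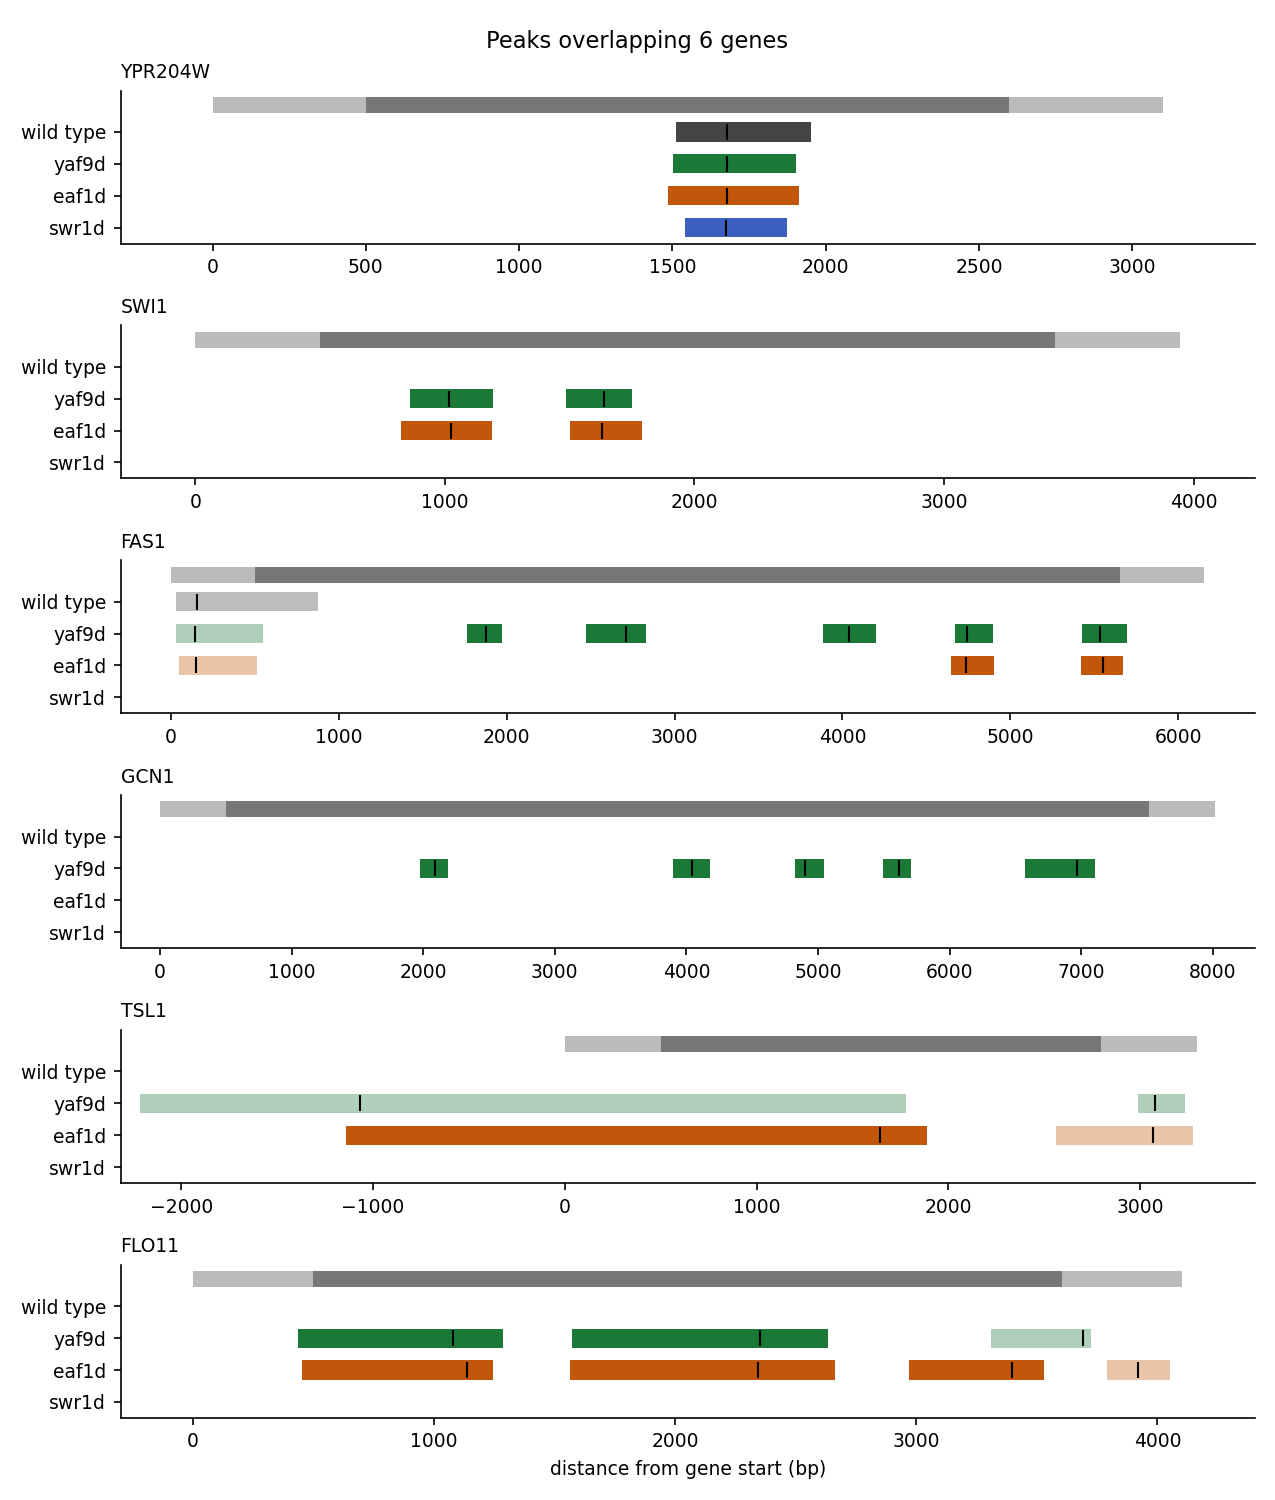
Peaks overlapping 6 genes in the 4 lists, drawn from the gene start at 0 in bp along the gene. The grey bar is the gene with its interior dark, coloured bars are peaks with a black line at the summit, and faded bars have a summit outside the interior. GCN1 has 5 interior peaks in yaf9d alone, and the TSL1 peak of eaf1d runs past the gene start.

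The overlap of interior peaks between lists was close to or below that of all peaks. Of the eaf1d interior peaks, 91.9% shared at least 1 bp with a yaf9d peak, where 89.9% of all eaf1d peaks did, and 96.2% of those of swr1d did, against 98.4%. Seen from yaf9d, 47.7% of interior peaks had an eaf1d counterpart against 60.4% of all yaf9d peaks, and 12.1% a swr1d counterpart against 26.6%. From eaf1d, 20.4% had a swr1d counterpart against 35.0%, and from swr1d 75.2% had an eaf1d counterpart against 82.1%. Wild-type peaks overlapped 1.71% of yaf9d interior peaks against 15.3%, 1.66% of those of eaf1d against 16.7% and 1.90% of those of swr1d against 33.0%. Which control each list was called against was not given in the sources used here. In the 338 pairs of interior peaks that overlapped between yaf9d and eaf1d, the summits were a median of 17.0 bp apart, a description of pairs picked for their overlap.

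By gene, 791 of 2248 long genes had an interior summit in some list and 1457 in none. The largest group was 367 genes of yaf9d alone, then 248 of yaf9d and eaf1d, 68 of eaf1d alone and 59 of all 3 mutants without wild type. The 309 genes shared by yaf9d and eaf1d were 43.6% of the yaf9d genes and 80.5% of those of eaf1d. The 87 shared by yaf9d and swr1d were 12.3% and 87.0%, and the 66 shared by eaf1d and swr1d 17.2% and 66.0%.

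Genes with an interior peak also had a summit at their start more often than long genes as a whole in yaf9d and swr1d. In yaf9d, 34.2% of them (30.7 to 37.8) also had a summit in their first 500 bp, where 27.5% of all long genes did, and 26.4% in their last 500 bp against 24.6%. In swr1d the shares were 13.0% (7.11 to 21.2) against 4.63% and 8.0% against 4.54%. In eaf1d they were 22.1% against 21.0% and 16.7% against 14.6%. No interior peak in any list came within 100 bp of a tRNA gene. The rule leaves little room for one, as each summit had to lie more than 500 bp inside 1 protein-coding gene. None of the 9 wild-type genes had a summit in either end (0 to 33.6%), where 2.98% and 0.979% of all long genes did.

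Groups of genes differed in how often their long members carried an interior peak. The yardsticks are the shares of all long genes, 31.5% in yaf9d, 17.1% in eaf1d and 4.45% in swr1d, and the median folds of all interior peaks, 1.83, 1.66 and 1.47. The shares are descriptions, with exact intervals for some of them. The share of genes with a peak also depends on gene length, so rates per 100 kb are given where a list is longer than the median of 2154 bp. The lists are not complete: among genes named above, SWI1 is not in the list of chromatin genes, RIM4 not in that of meiosis, GLK1 not in that of carbon metabolism, and SIT1 and TPO4 not in that of transporters.

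Of 32 long genes of amino acid and nucleotide synthesis, 21 had an interior peak in yaf9d (65.6%, 46.8 to 81.4), 11 in eaf1d (34.4%, 18.6 to 53.2), none in swr1d and 2 in wild type (6.25%, 0.766 to 20.8), with a median fold of 1.76 in yaf9d. Per 100 kb they had 59.1 peaks in yaf9d (40.4 to 83.4), above the 25.3 of all long genes. In eaf1d they had 22.2 (11.5 to 38.7), an interval that contains the 12.2 of all long genes. Of 27 long genes of glycolysis, fermentation and central carbon, 16 had one in yaf9d (59.3%, 38.8 to 77.6) and 14 in eaf1d (51.9%, 31.9 to 71.3), but 3 in swr1d, with 63.4 and 46.1 peaks per 100 kb in yaf9d and eaf1d. ALD4, a mitochondrial aldehyde dehydrogenase, had 2.58 in yaf9d, and GSY2, glycogen synthase, 2.65 in eaf1d. PDC1, pyruvate decarboxylase, had interior peaks of 1689 bp in yaf9d, 1667 bp in eaf1d and 925 bp in swr1d, with folds of 1.65, 1.55 and 1.30, and none in wild type. PDC1 was looked at after its values were seen. Of 12 long genes of lipid synthesis, 7 had one in yaf9d, 4 in eaf1d and none in swr1d. Per 100 kb they had 66.0 peaks in yaf9d (38.5 to 106) and 27.2 in eaf1d (10.9 to 56.0). The eaf1d interval contains the 12.2 of all long genes. Of the 17 yaf9d peaks FAS1 held 5 and ACC1 4, and the intervals take peaks of the same gene as independent.

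Of 25 long cell wall and flocculin genes, 16 had an interior peak in yaf9d (42.5 to 82.0%), 15 in eaf1d (38.7 to 78.9%) and 5 in swr1d (6.83 to 40.7%). Their median length was 3396 bp, and per 100 kb they had 37.9 peaks in yaf9d (23.8 to 57.4), which contains the 25.3 of all long genes, 39.6 in eaf1d (25.1 to 59.5) against 12.2 and 8.62 in swr1d (2.80 to 20.1) against 3.03. Genes of 3000 to 5000 bp, the class of that median, had 21.6, 9.64 and 2.34 in the same order, each below the interval of its list. These intervals take peaks of the same gene as independent, although 22 yaf9d peaks lay in 16 genes and 23 eaf1d peaks in 15. GSC2, a glucan synthase, led with 2.29 in yaf9d and 2.23 in eaf1d. FLO11, a flocculin with long internal repeats, had 3 interior peaks in eaf1d and 2 in yaf9d. Flocculin genes resemble one another, so that reads may be shared among them. Of 37 plasma membrane pumps and transporters, 17 had one in yaf9d, 7 in eaf1d and 2 in swr1d, with the multidrug pump SNQ2 at 2.63, the highest within the list.

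Of 32 translation factors and tRNA synthetases, 16 had an interior peak in yaf9d (31.9 to 68.1%) and 4 in eaf1d, and PRT1, of initiation factor eIF3, led with 2.67. Their yaf9d rate was 44.8 per 100 kb (29.0 to 66.2). Of 6 large subunits of RNA polymerases, 5 had one in yaf9d, none in eaf1d or swr1d and 1, RPA135, in wild type. Their median length was 4029 bp, and the interval of the yaf9d rate of 36.3 per 100 kb (14.6 to 74.7) contains the rate of all long genes. It also contains the 21.6 of genes of 3000 to 5000 bp. Of 24 chaperones, 9 had one in yaf9d, 4 in eaf1d and 3 in swr1d.

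Chromatin remodellers and histone modifiers had 15 of 46 genes in yaf9d, 7 in eaf1d and 1 in swr1d, with EPL1, itself a NuA4 subunit, at 2.58 in yaf9d and 2.74 in eaf1d. Their yaf9d rate of 18.0 per 100 kb (10.8 to 28.1) contains that of all long genes in its interval. Their median length was 2919 bp. Genes of 2000 to 3000 bp had 30.1, above that interval, and genes of 3000 to 5000 bp had 21.6, within it. Very long genes of motors, transport and signalling had 15 of 43 in yaf9d and 8 in eaf1d, with 10.3 (6.53 to 15.4) and 3.58 (1.55 to 7.05) peaks per 100 kb. These intervals contain the 14.0 and 5.31 of all genes of at least 5000 bp. Of 30 long meiosis and sporulation genes, most of which are known to be silent in growing cells, 2 had an interior peak in yaf9d (6.67%, 0.818 to 22.1), NDT80 with fold 2.32 and SPO14 with 1.55, and none in eaf1d (0 to 11.6%), swr1d or wild type. RIM4, the meiosis regulator with the highest eaf1d fold, is outside the list. Transcript levels were not measured here. Of 41 genes placed like Ty gag-pol genes, 5 had one in yaf9d (12.2%, 4.08 to 26.2), 3 in eaf1d and 4 in swr1d, with median folds of 2.25, 2.23 and 2.29 and 4.25 peaks per 100 kb in yaf9d (1.56 to 9.24). All genes of at least 5000 bp had 14.0 in yaf9d. In swr1d the share was 9.76% (2.72 to 23.1), with 2.83 peaks per 100 kb (0.771 to 7.25). These lie above the 4.45% of all long genes and the 1.24 of genes of at least 5000 bp, which their intervals contain. In eaf1d the share was 7.32% (1.54 to 19.9), with 2.12 peaks per 100 kb (0.438 to 6.20), below 17.1% and 5.31, which their intervals contain. YIL082W-A, with 3 interior peaks in yaf9d, 3 in eaf1d and 2 in swr1d, is outside these 41.

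**Figure D5:**
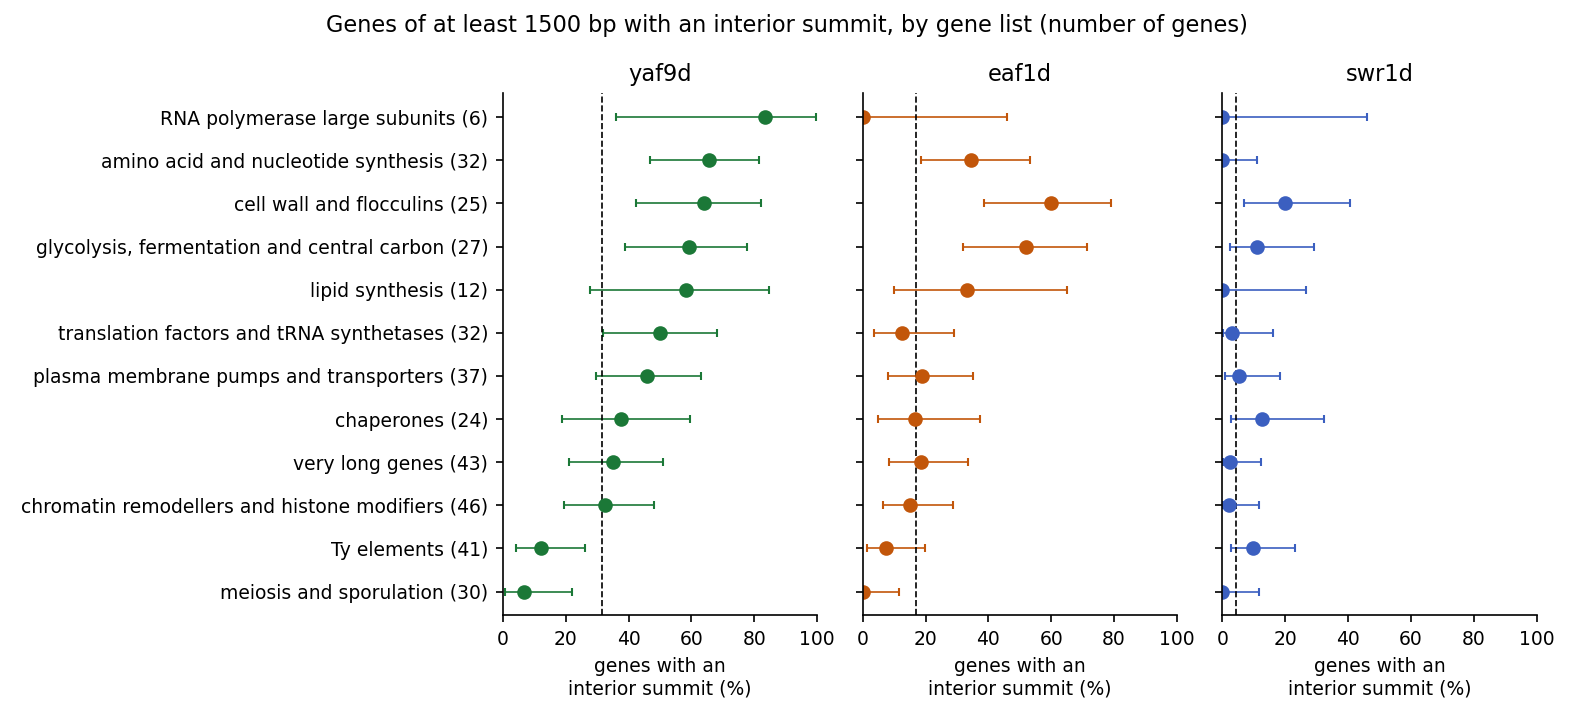
Share of the long genes of each list with an interior peak, for yaf9d, eaf1d and swr1d. Error bars are exact 95% intervals of counting error and dashed lines are the shares of all long genes, 31.5%, 17.1% and 4.45%. Amino acid and nucleotide synthesis lies above the line in yaf9d, and meiosis and sporulation lies below it.

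The genes of this paragraph were named after their values were seen. FET3, the iron oxidase of high-affinity uptake, had no wild-type peak and 1 peak of 3274 bp in yaf9d, 3199 bp in eaf1d and 3152 bp in swr1d, with folds of 2.63, 2.0 and 1.82. The summit was interior in eaf1d and swr1d, 639 and 628 bp from the gene start, and at 295 bp in yaf9d. PMA1, the plasma membrane proton pump, had 2 interior peaks in each of the 3 mutants, with folds of 1.12 to 1.49, and none in wild type. The siderophore transporter genes ARN1 and ARN2 each had an interior peak in yaf9d, with folds of 2.22 and 1.89, ARN1 also in swr1d with 1.85, and FIT1, a cell wall protein of iron uptake, in yaf9d with 1.69 and eaf1d with 1.68. Wild type had no peak overlapping ARN1, ARN2 or FIT1. CDC19, pyruvate kinase, had an interior summit in yaf9d alone, at 570 bp of 1503 bp, with fold 1.48. All other lists also had a CDC19 peak, with its summit outside the margin. These summits lay at 485 bp in wild type, 1142 bp in eaf1d and 1163 bp in swr1d, with folds of 1.11, 1.21 and 1.13. FAS2, the alpha subunit of fatty acid synthase, had 3 in yaf9d and 2 in eaf1d, with folds of 1.38 to 1.84.

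The genes deleted in the strains were also read. Each is missing from its own deletion strain, so the lack of a peak there was fixed in advance. SWR1 had a wild-type peak at its start with fold 3.24 and 1 in eaf1d with 2.19. In yaf9d it had an interior peak with fold 1.62 and a stronger one of 2.09 that ran past its end. It had none in swr1d. Among the lists of strains that carry EAF1, that of yaf9d alone had EAF1 peaks, at the gene start with fold 1.96 and near the gene end with 1.5. YAF9 had none in any list. SWC4 is too short for the rule.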

How the data were processed

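Per the labels, each deposited list pools the 2 ChIP repeats of 1 genotype. Per the submitters' processing notes, fastp 0.21.0, BWA 0.7.15-r1140, SAMtools 1.4 and MACS2 were used. Build, control, caller settings and depth were not given in the sources used here. Consequently the precision of a fold is unknown. The lists hold the authors' fold enrichment (a ratio) and the authors' −log10 q of each summit, deposited beside a −log10 p not used here. The smallest −log10 q was 1.31.

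Summits were set against RefSeq's R64 gene table (6002 nuclear protein-coding genes) in Python 3.11.15 with pandas 2.3.3 and SciPy 1.17.1. As a check of the build, 34 to 114 of 275 tRNA genes had a summit within 60 bp, and 1 to 13 when shifted by 200 to 1000 bp. Strand came from systematic names, and a chromosome's length from its furthest gene or peak. Placement was tested on simulated data. No p-value was computed.

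Members and gene lists were chosen with earlier results of these data known. Named were, per list, the 8 interior peaks of highest fold and the 3 genes with most interior peaks, genes in all 4 lists, per mutant the 5 strongest by fold in genes lacking a wild-type interior peak, up to 4 members per gene list, the deleted genes and SWC4, and peaks at the margins. FET3, ARN1, ARN2, FIT1, PMA1, PDC1, CDC19 and FAS2 were added after their values were seen.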

Additional observations from a re-analysis of the deposited data

How the results depend on the processing

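The ratio of interior peaks to the length share stayed below 1 under all 11 alternatives in the 4 lists, and no direction turned. It ranged from 0.0142 to 0.0970 in wild type, 0.100 to 0.793 in yaf9d, 0.167 to 0.630 in eaf1d and 0.0426 to 0.415 in swr1d. Of 44 values, 23 stayed within the counting interval of the reported ratio and 21 moved out of it. In the order wild type, yaf9d, eaf1d and swr1d, a margin of 250 bp gave 0.0970, 0.793, 0.630 and 0.415, and 700 bp gave 0.0225, 0.605, 0.436 and 0.227. Genes of at least 2500 bp gave 0.560 in yaf9d, 0.386 in eaf1d and 0.224 in swr1d. Peaks of −log10 q at least 5 gave 0.0142 in wild type, 0.445 in eaf1d and 0.20 in swr1d. Peaks of fold at least 2 gave 0.0183, 0.490, 0.253 and 0.0426. Equal list length gave 0.100 in yaf9d, 0.167 in eaf1d and 0.0836 in swr1d. The cause was not tested. Leaving out peaks wider than 1000 bp, chosen after seeing the data, gave 0.0563, 0.691, 0.514 and 0.298. No paired analysis was possible because each list pools both repeats of its genotype, and for the same reason no repeat could be left out.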
